A study of Mus musculus with 14 samples.

Results

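The members are the nuclear genes for subunits of the 5 respiratory chain complexes of mitochondria. They were chosen by gene symbol: a symbol had to begin with Nduf followed by a, b, c, s or v and a digit, with Uqcr, with Cox and a digit from 4 to 8 or with Atp5, or to be one of the Sdh genes. Pseudogenes with -ps in the symbol were left out, as were 8 genes with tissue-specific partners (Ndufa4l2, Cox4i2, Cox6a1, Cox6a2, Cox7a1, Cox7a2, Cox8a and Cox8b). This gave 80 of the 38553 genes listed in each file, of which 38 belong to complex I, 4 to complex II, 8 to complex III, 13 to complex IV and 17 to complex V. Ndufa4, which was named as a complex I gene and is now placed in cytochrome c oxidase, was counted in complex IV.

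The values come from RNA-seq of poly(A) RNA from adipocytes of male C57BL/6 mice. Mice were weaned at 3 weeks onto either regular chow (the normal diet) or a high-fat diet, which they ate for 16 weeks. Fat cells were freed with collagenase (20 min for white pads, 40 min for brown pads) and taken as the floating layer, and each library pooled the tissue of 3 to 5 mice. There were 3 libraries for each of 4 white groups (epididymal and inguinal depot, normal and high-fat diet) and 1 interscapular brown library per diet, so the brown comparison has no replicates. Replicates are numbered 0, 1 and 2 as in the sample titles, and values for a white group are given in that order. All levels are FPKM, a unit that divides the fragments of a gene by its length and by the size of its library, so levels of genes can be compared per length.

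Complexes I and II pass electrons from NADH and succinate to ubiquinone, complex III passes them to cytochrome c, and complex IV passes them to oxygen. Complexes I, III and IV pump protons across the inner membrane, and complex V, the ATP synthase, uses their return to make ATP. In brown fat the uncoupling protein UCP1 lets protons back without ATP synthesis, and brown fat cells of the mouse are known for many respiratory complexes and little ATP synthase. A few core subunits of complexes I, III, IV and V are encoded in mitochondrial DNA and are not members.

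The libraries fell into sets in a measure outside these genes. In 8 libraries none of the 22 tRNA genes of mitochondrial DNA had a value above 0: all 6 from epididymal fat, replicate 0 of the inguinal normal-diet group and the brown library on the high-fat diet. The other 6 libraries had values for 10 to 19 of these tRNA genes. The labels give no batch that matches these sets. Between 15560 and 18029 genes were above 0 in the white libraries, and the share of protein-coding FPKM from mitochondrial mRNA was 20.5% to 66.5% in white libraries, 80.6% in the brown normal-diet and 82.4% in the brown high-fat library. The 10 brown adipocyte markers summed to 487 FPKM in the normal-diet and 1646 FPKM in the high-fat brown library, against 13.4 to 331 FPKM in white libraries, and the 7 white adipocyte markers summed to at least 10774 FPKM in every library. In whole adipocyte layers, fewer cells of a type and less RNA per cell cannot be told apart.

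Of the 80 members, 76 reached 0.5 FPKM in at least 3 of the 12 white libraries and were tested. Ndufa11b, Cox6c2 and Cox7b2 were listed at 0 in all 14 libraries. Cox8c, a subunit isoform known from testis, was at 1.05 FPKM in epididymal normal-diet replicate 2 and at 0 elsewhere. Ndufs6b passed the filter only through the group in which it was high, so its differences below follow from the filter.

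Complex V held the most abundant subunit mRNA, and complex I had the lowest median level. Over the tested genes, the median of the white means was 77.1 FPKM for complex I (37 genes), 98.4 for complex II (4), 163 for complex III (8), 143 for complex IV (10) and 149 for complex V (17). In complex V, Atp5b, the catalytic beta subunit of the F1 head, stood highest with a white mean of 719 FPKM, and Atp5g3, a gene for the c subunit of the membrane rotor, was next at 446 FPKM. Its lowest members were Atp5s (4.24 FPKM), which encodes coupling factor B, and Atp5g1 (30.2 FPKM), another c subunit gene. Cox4i1 (501 FPKM) and Cox6b1 (430 FPKM), accessory subunits that surround the catalytic core of cytochrome c oxidase, led complex IV, while Cox7b (70.6 FPKM) and Cox6b2 (1.80 FPKM), an isoform known from testis, stood lowest there. In complex III the small subunit genes Uqcr11 (258 FPKM) and Uqcr10 (232 FPKM) were above Uqcrfs1 (98.6 FPKM), the Rieske iron-sulfur protein, and Uqcrc1 (110 FPKM), a core protein. In complex I the accessory subunits Ndufa3 (275 FPKM) and Ndufb9 (198 FPKM) were highest, and Ndufs6b (0.657 FPKM) and Ndufa11 (9.89 FPKM) were lowest.

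Levels varied little across white libraries for most members. The median coefficient of variation over the 12 libraries was 21.5%, and it lay between 19.3% and 22.4% for each complex. Cox5a, a subunit on the matrix side of complex IV, was the steadiest at 10.8%, while the low Ndufs6b and Cox6b2 reached 182% and 85.0%, and Atp5g1, Atp5l, Atp5h and Atp5g2 reached 62.5%, 46.7%, 42.3% and 41.2%. Across the 14 libraries complex I supplied 28.0% to 32.4% of the members' FPKM, complex II 3.71% to 4.99% and complex III 12% to 14.7%. Complex IV supplied 19.1% to 21.4% and complex V 30.7% to 34.6%. On the high-fat diet complex I was lower in epididymal (28.3% to 29.1%) than in inguinal libraries (29.96% to 31.3%). Complex V was higher in epididymal libraries on that diet (33.8% to 34.6% against 32.1% to 32.5%). The depots overlapped for the other complexes on that diet and for every complex on the normal diet. Depot and library set cannot be told apart on the high-fat diet, and these shares were not tested.

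Taken as a share of nuclear protein-coding FPKM, which leaves mitochondrial transcripts out of the scale, the members differed in opposite directions with diet in the white depots. In epididymal adipocytes the share was 3.09%, 2.99% and 3.14% on the normal diet and 2.58%, 2.64% and 2.70% on the high-fat diet. In inguinal adipocytes it was 2.79%, 2.94% and 2.56% on the normal diet and 3.14%, 3.21% and 3.32% on the high-fat diet. The diet groups did not overlap in either depot, and no test was made of this sum. Each complex followed the total in group means, with complex I going from 0.921% ± 0.0374 to 0.754% ± 0.0297 in epididymal and from 0.859% ± 0.0808 to 0.985% ± 0.0494 in inguinal adipocytes (SD, n = 3). A share also moves with the genes that make up the rest of the total, and those were not analysed here.

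**Figure D1:**
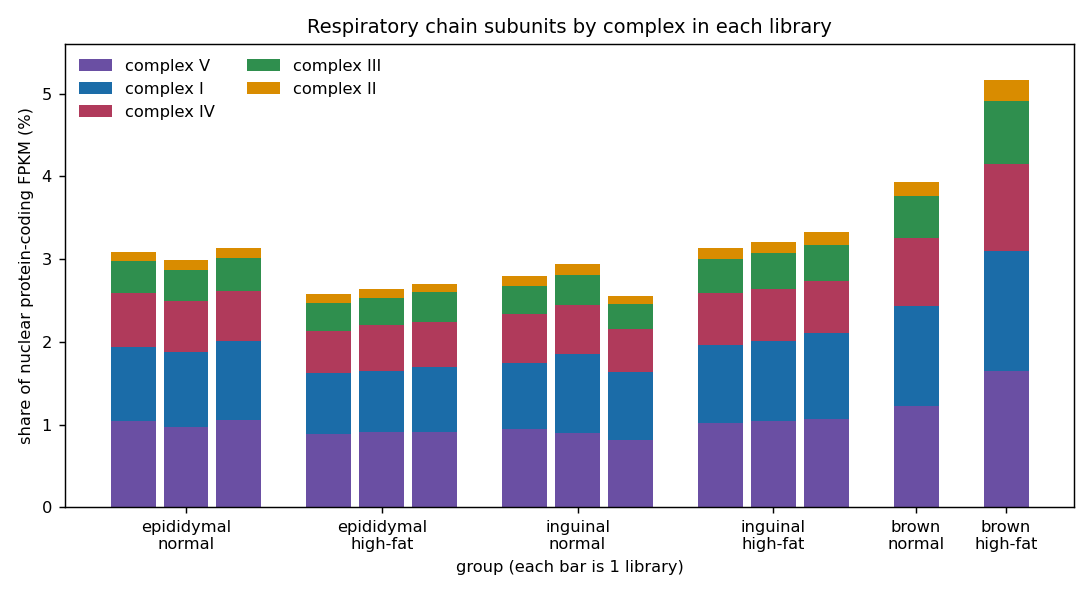
Share of nuclear protein-coding FPKM (%, vertical axis from 0) held by the subunit genes of each complex, with 1 stacked bar for each of the 14 libraries, ordered by depot and diet (horizontal axis). Epididymal high-fat bars (2.58% to 2.70%) lie below epididymal normal-diet bars (2.99% to 3.14%), inguinal high-fat bars (3.14% to 3.32%) lie above inguinal normal-diet bars (2.56% to 2.94%), and the brown bars are highest at 3.93% and 5.17%.

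Whether the high-fat diet changed single subunit genes in epididymal adipocytes was tested with limma on log2(FPKM + 0.5), fitted over all 14959 genes that passed the filter. None of the 76 members was called at a Benjamini-Hochberg adjusted p under 0.05, where 19.5% of all genes tested were called, 12.2% higher and 7.35% lower. An unadjusted p under 0.05 was reached by 0 members and by 4736 of the 14959 genes. The 95% interval of the diet difference lay within 2-fold either way for 73 of the 76 members, against 41.3% of all genes. The median log2 difference, high-fat minus normal, was −0.03 for the members and 0.07 for all genes, and by complex it ran from −0.09 in complex I to 0.05 in complex II. The groups did not overlap for 8 members, where 42.4% of all genes tested did not overlap. Among them Sdhd, a membrane anchor of succinate dehydrogenase, read 75.4, 90.4 and 89.5 FPKM on the normal and 104, 94.8 and 94.8 FPKM on the high-fat diet, a log2 difference of 0.20 (SE 0.15, adjusted p = 0.411).

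This result depended on the scale. Where each library was scaled to its nuclear protein-coding total, 0 members were higher and 5 lower (Ndufa5, Ndufa3, Ndufb8, Uqcrc2 and Atp5c1, with log2 differences of −0.48 to −0.62), and with quantile normalization 0 were higher and 12 lower. The median of all genes in this contrast then stood at −0.09 and −0.02, and 19.9% and 19.3% of all genes were called. With TMM-type factors 0 members were called, where 20.9% of all genes were.

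Markers of other cells moved in the same contrast. All 8 endothelial markers fell with the high-fat diet (summed level 357 to 457 FPKM on the normal and 30.7 to 69.0 on the high-fat diet). Of 10 macrophage markers 6 rose and 1 fell (347 to 632 against 1196 to 2123 FPKM), and 4 of 8 fibroblast and progenitor markers fell (671 to 1159 against 236 to 364 FPKM). Of 10 brown adipocyte markers 2 rose, with sums that did not overlap (13.4 to 40.6 against 66.5 to 73.0 FPKM). There was no marker of these lists at 0 throughout a group. The part of these shifts in the members' values was not tested.

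In inguinal adipocytes 7 of the 76 members rose and 1 fell with the high-fat diet, where 19.5% of all genes tested were called, 9.3% higher and 10.2% lower. The groups did not overlap for 12 members, where 33.1% of all genes tested did not overlap. The median log2 difference was 0.30 for the members and −0.01 for all genes, and it was 0.31, 0.49, 0.42, 0.10 and 0.28 for complexes I to V. Called genes were found in complexes I, II, III and V, and 0 of the 10 tested genes of complex IV were called. Of these 10 genes 1 had an unadjusted p under 0.05, as did 5105 of all 14959 genes tested.

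In complex I, Ndufs1, the largest core subunit with iron-sulfur clusters on the NADH side, read 34.0, 50.1 and 33.2 FPKM in normal-diet and 53.0, 55.2 and 63.3 FPKM in high-fat libraries. The groups did not overlap, and the log2 difference was 0.57 (SE 0.18, limma adjusted p = 0.049). Ndufs4, an accessory subunit whose loss in mice causes a disease like Leigh syndrome, read 30.4, 43.4 and 28.3 FPKM against 47.1, 53.2 and 54.7 FPKM, 0.62 higher on the log2 scale (SE 0.18, adjusted p = 0.0293). Normal-diet replicate 1 stood nearest to the high-fat libraries for both genes.

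Complex II, which is also succinate dehydrogenase of the citric acid cycle, is encoded wholly in the nucleus. Its anchor gene Sdhd rose from 71.9, 88.2 and 67.0 FPKM to 102, 108 and 109 FPKM (log2 0.50, SE 0.15, adjusted p = 0.0413). The other anchor, Sdhc, read 71.2, 103 and 71.1 FPKM against 101, 114 and 127 FPKM (log2 0.49, adjusted p = 0.12). The iron-sulfur subunit gene Sdhb read 66.3, 102 and 57.3 FPKM against 86.6, 106 and 129 FPKM (log2 0.54, adjusted p = 0.151). The flavoprotein gene Sdha, which carries the catalytic site, read 122, 187 and 127 FPKM against 144, 164 and 192 FPKM (log2 0.21, adjusted p = 0.527). Only Sdhd of these had groups that did not overlap.

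In complex III, Uqcrq, a small subunit next to cytochrome b, rose from 142, 185 and 150 FPKM to 233, 263 and 258 FPKM (log2 0.67, SE 0.20, adjusted p = 0.0362). In complex V, Atp5mpl, a small membrane subunit, rose from 156, 189 and 144 FPKM to 220, 230 and 239 FPKM (log2 0.50, SE 0.16, adjusted p = 0.0456). The c subunit genes of complex V diverged. Atp5g3 rose from 311, 439 and 326 FPKM to 507, 606 and 575 FPKM (log2 0.66, SE 0.21, adjusted p = 0.042), whereas Atp5g2 fell from 85.6, 46.5 and 53.0 FPKM to 37.4, 29.6 and 33.3 FPKM (log2 −0.83, SE 0.22, adjusted p = 0.0222). The normal-diet value of Atp5g2 was highest in replicate 0, the inguinal library with tRNA genes at 0. The seventh gene that rose, Ndufs6b, is described below.

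These inguinal calls rested on single libraries. Without inguinal high-fat replicate 1 or 2 none of the members was called, without high-fat replicate 0 or normal-diet replicate 0 only 1 was, without normal-diet replicate 2 it was 2, and without normal-diet replicate 1 it was 22 (20 higher). Leaving out any epididymal library other than normal-diet replicate 0 gave 3 to 5, and the count without that replicate 0 is not given here. Such a run changes the shared spread and can change which genes pass the filter. The share of all genes called with a library left out is not given, here or for the later comparisons. These counts therefore show how the calls moved and cannot be read against all genes. With the library set as a term in the model only Ndufs6b was called, where 13.4% of all genes were, and the median of the members was 0.20. Under nuclear protein-coding scaling 11 rose and 2 fell, where 22.2% of all genes were called. Under quantile normalization 5 rose and 3 fell, where 22.6% were.

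Lymphocyte markers separated the same groups. All 10 fell with the high-fat diet, from a summed 64.9 to 765 FPKM on the normal to 5.33 to 12.8 FPKM on the high-fat diet, and 5 of 8 fibroblast and progenitor markers fell (600 to 1798 against 323 to 460 FPKM). Of 10 brown adipocyte markers 4 rose (61.5 to 201 against 120 to 331 FPKM), of 10 macrophage markers 3 rose (146 to 286 against 204 to 328 FPKM), and of 8 endothelial markers 1 fell, with sums that did not overlap (299 to 399 against 176 to 269 FPKM). Of 7 white adipocyte markers 1 rose and 0 fell (10774 to 27345 against 18507 to 28305 FPKM), with a median log2 difference of 0.62. Among the normal-diet inguinal libraries, replicate 1 read highest for each of these 7. No marker of these lists was at 0 throughout either group, and their part in the members' values was not tested.

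Whether the diet effect differed between depots was tested as an interaction. Of the 76 members 0 were higher and 1 was lower in the epididymal than in the inguinal effect, where 7.22% of all genes tested were called, 4.8% higher and 2.42% lower. Over the members, 2 had an unadjusted p under 0.05, as did 3295 of all 14959 genes tested. The median interaction was −0.32 for the members and 0.07 for all genes. Its 95% interval stayed within 2-fold for 35 of the 76 members, against 22.9% of all genes. For the other members it reached past 2-fold in at least 1 direction. Nuclear protein-coding scaling called 5 members in the lower direction and quantile normalization 7, Ndufb8, Atp5c1, Ndufa10 and Uqcrq among them in both. Of all genes these runs called 7.73% and 7.85% in either direction. Leaving out inguinal normal-diet replicate 1 gave 5 calls, 1 higher and 4 lower. The 7 white adipocyte markers had a median interaction of −0.65, with 0 called. All 8 endothelial markers and 1 of 6 mesothelial ones were lower. Of 10 lymphocyte markers 3 were higher, of 10 macrophage markers 2, and of 8 fibroblast and progenitor markers 1. Their part in the members' values was not tested.

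The one interaction call was Ndufs6b (chromosome 7, 81161273 to 81161746 in GRCm38.p6), which RefSeq lists as a pseudogene. It was at 2.20, 2.83 and 2.86 FPKM in the inguinal high-fat libraries and at 1.59 FPKM in the brown normal-diet library, and was listed at 0 in the other 10 libraries. The 4 libraries above 0 all belong to the 6 with tRNA genes above 0. Its call and its fitted log2 difference of −2.64 follow from the filter and the pseudocount, since 3 of the 4 groups stand at 0. Without any 1 of the inguinal high-fat libraries it no longer passed the filter.

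**Figure D2:**
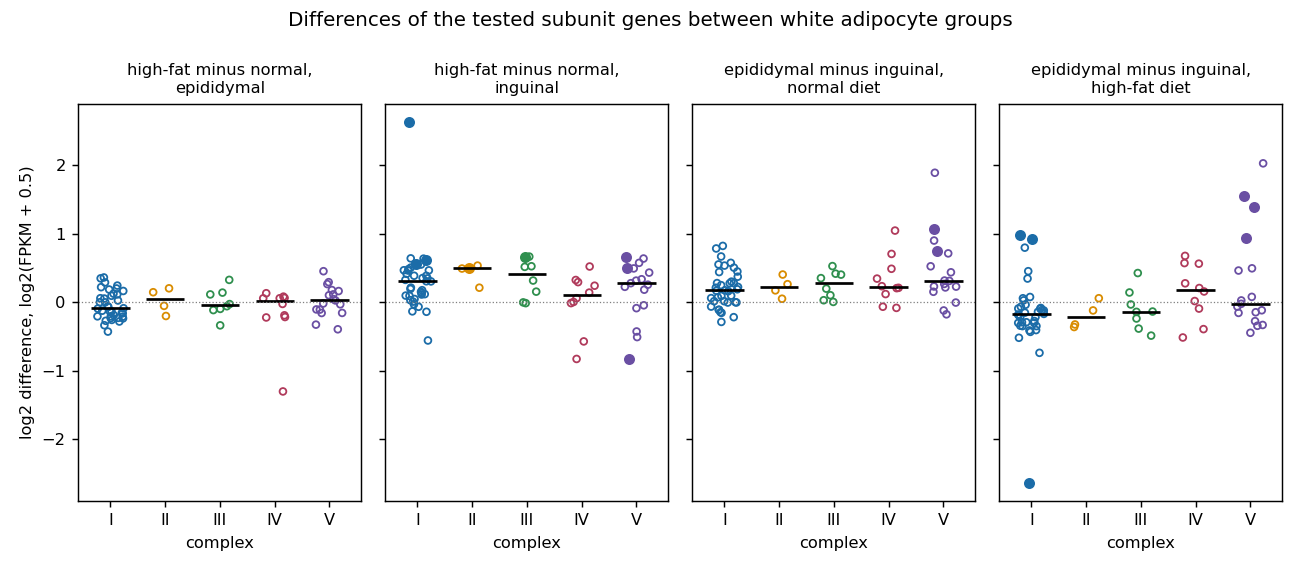
Log2 difference in log2(FPKM + 0.5) (vertical axis) of each of the 76 tested subunit genes by complex (horizontal axis) for the diet comparisons in each depot and the depot comparisons on each diet. Filled points passed at an adjusted p under 0.05, open points did not, and bars are medians: no point is filled for the epididymal diet effect, 8 are filled for the inguinal one, 2 for depot on the normal and 6 for depot on the high-fat diet.

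Between depots on the normal diet, 2 of 76 members were higher in epididymal adipocytes and 0 lower, where 6.51% of all genes tested were called, 2.36% higher and 4.15% lower. The depots did not overlap for 11 members, where 19.1% of all genes tested did not overlap. Both called genes encode parts of complex V. Atp5o, the subunit that ties the peripheral stalk to the F1 head, read 134, 161 and 181 FPKM in epididymal and 98.7, 105 and 79.1 FPKM in inguinal libraries (log2 0.75, SE 0.19, limma adjusted p = 0.0358). Atp5l, the membrane subunit g at the dimer interface, read 230, 272 and 319 FPKM against 211, 97.9 and 104 FPKM (log2 1.07, SE 0.27, adjusted p = 0.0396). For Atp5l the inguinal library with tRNA genes at 0 lay near the epididymal ones, whereas for Atp5o it lay with the other inguinal ones. Against that inguinal library alone 0 members were called, in a fit where its spread had to be taken from the other groups. The count was 0 or 1 without any one of the high-fat libraries, without epididymal normal-diet replicate 1 or 2 or without inguinal normal-diet replicate 2. It was 3, 5 and 7 without epididymal normal-diet replicate 0, inguinal normal-diet replicate 0 and inguinal normal-diet replicate 1. Of 10 lymphocyte markers 9 were lower in epididymal libraries (summed level 5.81 to 12.6 against 64.9 to 765 FPKM), all 6 mesothelial ones were higher (10.3 to 17.7 against 0.371 to 0.572 FPKM, with Msln, Upk3b and Wt1 at 0 in all inguinal normal-diet libraries) and 3 of 10 brown adipocyte ones were lower (13.4 to 40.6 against 61.5 to 201 FPKM). Of 8 fibroblast and progenitor markers 1 was lower and of 10 macrophage markers 1 was higher. Their part in the members' values was not tested.

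On the high-fat diet 5 members were higher in epididymal adipocytes and 1, Ndufs6b, was lower, together 7.89% of the members, where 10.6% of all genes tested were called, 7.08% higher and 3.53% lower. The depots did not overlap for 35 members, where 38.4% of all genes tested did not overlap. Atp5g2 read 95.5, 86.7 and 81.8 FPKM in epididymal and 37.4, 29.6 and 33.3 FPKM in inguinal libraries (log2 1.39, SE 0.22, limma adjusted p = 0.00268). Atp5l read 248, 274 and 275 FPKM against 95.2, 105 and 74.1 FPKM (log2 1.55, SE 0.27, adjusted p = 0.00433), and Atp5h, the d subunit of the peripheral stalk, read 147, 175 and 175 FPKM against 60.4, 100 and 106 FPKM (log2 0.93, SE 0.26, adjusted p = 0.0423). In complex I, Ndufs5, an accessory subunit of the intermembrane space side, read 108, 107 and 116 FPKM against 48.4, 56.9 and 62.9 FPKM (log2 0.98, SE 0.23, adjusted p = 0.0164). Ndufa12, an accessory subunit of the hydrophilic arm, read 50.4, 69.2 and 74.9 FPKM against 28.5, 32.5 and 40.6 FPKM (log2 0.92, SE 0.24, adjusted p = 0.0289).

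In this comparison the depot and the library set cannot be told apart, because all 3 epididymal libraries are in the set of 8 and all 3 inguinal libraries in the set of 6. The median log2 difference was −0.12 for the members and 0.04 for all genes. With replicate numbers as a block, Ndufa5 was also called, as lower (log2 −0.74, limma adjusted p = 0.0232). The calls of Atp5g2 and Atp5l held with any one library left out. They were lost with the library set as a term, where 0.682% of all genes were called, against 10.6% without it. Among the white groups only the inguinal normal-diet one holds libraries of both sets, so the term rests on that group. The loss of these calls is therefore not particular to these genes. Nuclear protein-coding scaling called 4 members higher and 16 lower, and quantile normalization 2 higher and 15 lower, where each called 10.5% of all genes. The median of all genes was then −0.15 and −0.02. Without epididymal high-fat replicate 1 or 2 or inguinal high-fat replicate 1 the count was 3, and without inguinal high-fat replicate 0 it was 2. Of 10 macrophage markers 8 were higher in epididymal libraries (1196 to 2123 against 204 to 328 FPKM), and all 8 endothelial ones were lower (30.7 to 69.0 against 176 to 269 FPKM). Of 6 mesothelial ones 5 were higher (6.80 to 13.4 against 0.0538 to 0.154 FPKM). Krt19, Msln, Upk1b and Upk3b were at 0 in all inguinal high-fat libraries. Of 10 brown adipocyte markers 1 was lower, with sums that did not overlap (66.5 to 73.0 against 120 to 331 FPKM). Of 8 fibroblast and progenitor markers 1 was higher and 1 lower. Their part in the members' values was not tested.

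The 3 c subunit genes show how closely some members followed the library sets. Atp5g1, Atp5g2 and Atp5g3 encode the same mature rotor protein behind different import sequences, and their transcripts are known to respond differently to stimuli. Atp5g1 was at 36.2, 37.1 and 43.7 FPKM in epididymal normal-diet libraries, 54.8, 57.5 and 48.4 FPKM in epididymal high-fat ones, 30.5, 13.7 and 2.21 FPKM in inguinal normal-diet ones and 11.6, 13.3 and 13.3 FPKM in inguinal high-fat ones. All 8 libraries with tRNA genes at 0 were between 28.3 and 57.5 FPKM and the 6 others between 2.21 and 13.7 FPKM. For Atp5g2 the corresponding ranges were 81.8 to 118 and 29.6 to 58.3 FPKM. Atp5g3 did not separate the sets, and its highest values, 507 to 606 FPKM, were in the inguinal high-fat libraries. In the epididymal diet comparison, which lies within the set of 8, Atp5g1 differed by 0.45 on the log2 scale without passing (SE 0.62, limma adjusted p = 0.683), and its groups did not overlap.

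**Figure D3:**
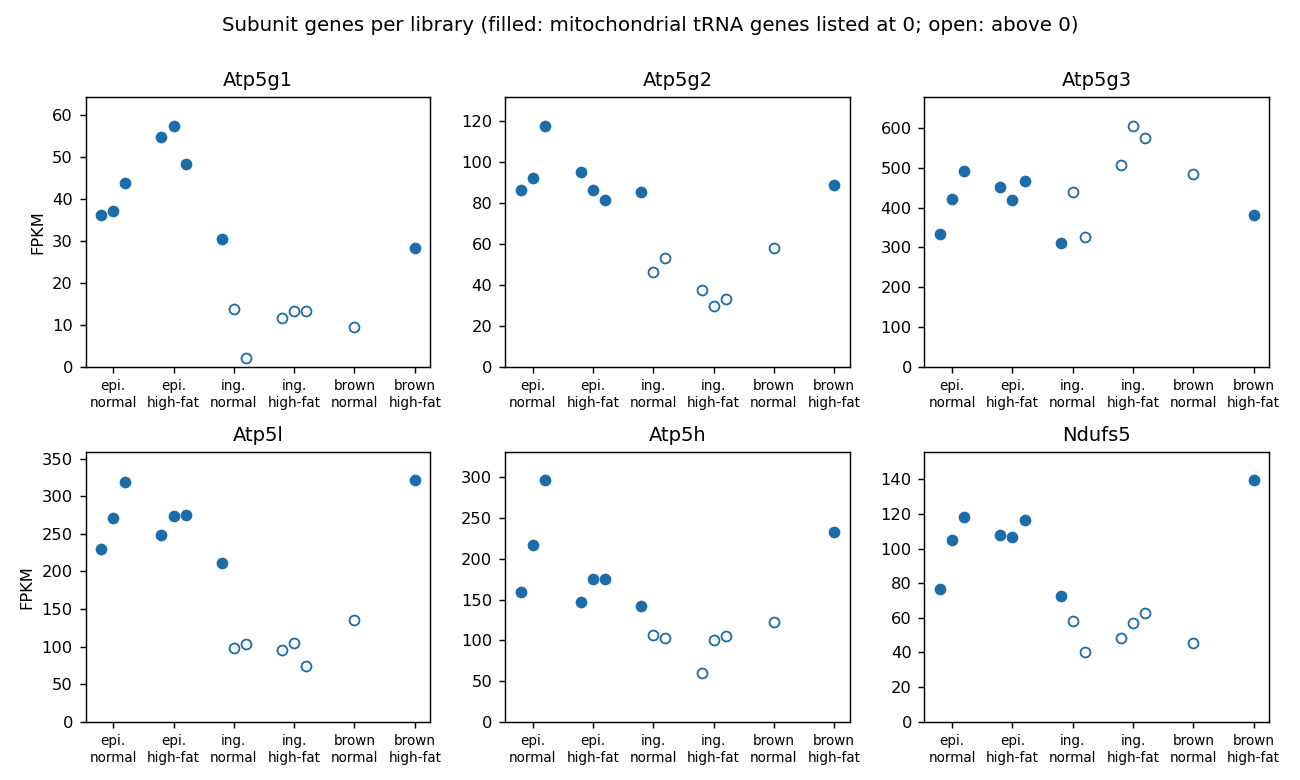
FPKM (vertical axis, from 0) of the c subunit genes Atp5g1, Atp5g2 and Atp5g3 and of Atp5l, Atp5h and Ndufs5 in each of the 14 libraries by group (horizontal axis). Filled points are the 8 libraries without values for mitochondrial tRNA genes and open points the other 6: every filled point lies above every open one for each gene but Atp5g3, and the filled inguinal normal-diet point (Atp5g1 30.5, Atp5g2 85.6, Atp5l 211 FPKM) stands apart from the open ones of its group.

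The promoters of these c subunit genes are printed because the genes share a product and differ in pattern. Each stretch runs from 250 bases before to 50 bases after a start that RefSeq lists for the gene, on the minus strand of GRCm38.p6, at chr11:96075582-96075881 for Atp5g1, chr15:102670998-102671297 for Atp5g2 and chr2:73911277-73911576 for Atp5g3. Capitals mark matches, on either strand, to the motif letters of NRF1 (GCGCA, any base, then GCGC), GABP (CCGGAAG), YY1 (AANATGGCG) or ERR (TNAAGGTCA), factors known to bind promoters of respiratory chain genes.
Atp5g1: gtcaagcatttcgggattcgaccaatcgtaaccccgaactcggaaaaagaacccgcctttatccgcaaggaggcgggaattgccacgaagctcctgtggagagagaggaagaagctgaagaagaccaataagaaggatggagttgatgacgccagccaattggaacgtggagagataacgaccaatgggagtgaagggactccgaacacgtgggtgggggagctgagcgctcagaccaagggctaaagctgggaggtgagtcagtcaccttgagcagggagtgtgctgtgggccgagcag
Atp5g2: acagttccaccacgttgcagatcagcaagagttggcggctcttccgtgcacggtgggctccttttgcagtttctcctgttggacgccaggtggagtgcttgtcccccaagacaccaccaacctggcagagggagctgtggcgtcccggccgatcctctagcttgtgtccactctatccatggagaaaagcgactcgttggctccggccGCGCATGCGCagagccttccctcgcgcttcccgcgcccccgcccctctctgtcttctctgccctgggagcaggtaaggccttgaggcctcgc
Atp5g3: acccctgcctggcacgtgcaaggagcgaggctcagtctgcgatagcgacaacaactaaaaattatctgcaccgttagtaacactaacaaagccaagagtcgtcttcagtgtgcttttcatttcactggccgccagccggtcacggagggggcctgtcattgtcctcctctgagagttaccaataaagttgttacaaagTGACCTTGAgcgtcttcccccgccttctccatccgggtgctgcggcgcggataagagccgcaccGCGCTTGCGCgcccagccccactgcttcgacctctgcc
The Atp5g1 stretch held none of these letters, the Atp5g2 stretch held 1 NRF1 match that begins at −42, and the Atp5g3 stretch held 1 NRF1 match at 13 and 1 ERR match at −52, counted from the listed start.

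Besides Atp5g1 and Atp5g2, the members with all 8 libraries above all 6 were Atp5h (142 to 296 against 60.4 to 123 FPKM), Atp5l (211 to 321 against 74.1 to 135), Cox5b (125 to 248 against 66.6 to 112), Ndufb4 (32.5 to 55.3 against 14.9 to 30.8), Ndufs3 (60.0 to 142 against 40.7 to 59.5) and Ndufs5 (72.4 to 139 against 40.3 to 62.9). These are 8 of 75 members that averaged 1 FPKM or more, where 0.796% of all 12938 genes at that level had this order, and 0 members had the opposite order, which 0.966% of all genes had. Of the 103 genes higher in the set of 8, RefSeq classes 90 as protein coding and 10 as pseudogenes. Of the 125 genes higher in the set of 6, it classes 7 as protein coding and 86, or 68.8%, as pseudogenes, against 2.86% of all genes at this level. Among copies of members, Atp5pb-ps, a pseudogene of the Atp5f1 gene for the b subunit, read 0.829 to 4.17 FPKM in the 8 libraries and 4.08 to 11.3 FPKM in the 6. Cox5b-ps read 0.000105 to 3.68 FPKM in the 8 and 0.00199 to 21.3 FPKM in the 6. Ndufa12-ps read 3.24 to 8.37 FPKM against 3.52 to 18.7 FPKM. The sets overlapped for all of these copies. How reads with several matches were counted is not given in the sources used here, so the levels of members with near-identical copies are uncertain, and the part of this in the differences was not tested.

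Brown adipocytes held more subunit mRNA than white ones for most members, though by less than 2-fold. The ratio of the brown library to the mean of the 6 white libraries on the same diet had a median of 1.26 on the normal and 1.46 on the high-fat diet over 75 members, against 0.716 and 0.724 over all 12938 genes. It was above 1 for 58 members on the normal and 69 on the high-fat diet. None of the members reached 2-fold above white in both diets, where 0.495% of all genes did, and 0 were 2-fold below in both, where 13.2% of all genes were. Both brown libraries stood above all 12 white ones for 21 members, where 0.966% of all genes did so, and below them for 0, where 12.4% did. These comprised 7 of 36 genes in complex I, 1 of 4 in complex II, 4 of 8 in complex III, 6 of 10 in complex IV and 3 of 17 in complex V. With 1 brown library per diet there is no replicate check and no test.

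By complex, the median brown to white ratio on the normal and high-fat diet was 1.26 and 1.34 for complex I, 1.34 and 1.72 for complex II, 1.36 and 1.58 for complex III, 1.29 and 1.66 for complex IV and 1.21 and 1.46 for complex V. The order of the complexes depended on the white libraries used. Against white libraries of the same set, the normal-diet median was 1.25 for complex I and 1.29 for complex V. The high-fat median was 1.40 for complex I and 1.28 for complex V. Those white libraries were inguinal replicates 1 and 2 on the normal diet and the epididymal ones on the high-fat diet. Set and white depot therefore cannot be told apart in these ratios. In complex IV, Cox5a read 144 FPKM in the normal-diet and 248 FPKM in the high-fat brown library, against 83.6 to 118 FPKM in white ones, ratios of 1.44 and 2.45. Cox7b read 126 and 144 FPKM against 51.2 to 104 FPKM (1.82 and 2.00). In complex III, Uqcrfs1 read 157 and 216 FPKM against 79.2 to 120 FPKM (1.66 and 2.11). The Sdh genes of complex II were all above 1, from 1.28 for Sdha to 1.37 for Sdhd on the normal diet and from 1.46 for Sdhc to 1.76 for Sdhd on the high-fat diet.

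**Figure D4:**
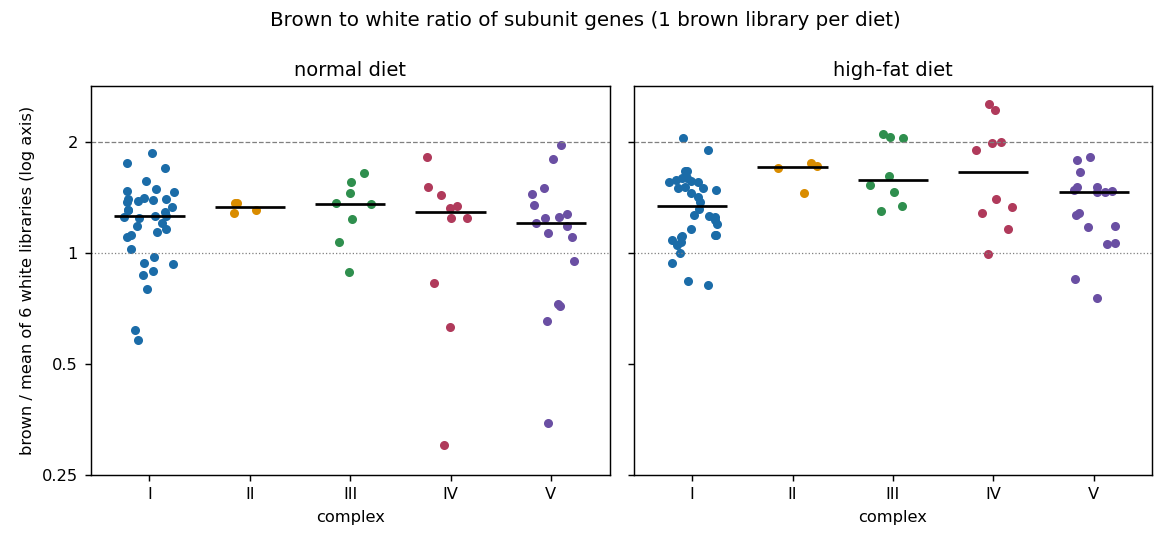
Ratio of the brown library to the mean of the 6 white libraries on the same diet (vertical log axis) for 75 subunit genes by complex (horizontal axis), normal diet on the left and high-fat diet on the right. Points are genes, bars medians, the dotted line marks equal levels and the dashed line 2-fold; the medians of all complexes lie above 1 on both diets, between 1.21 and 1.72.

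At the extremes within complexes, Ndufa5 of complex I had the highest ratio on the normal diet (1.87) and Ndufs3, a core subunit, on the high-fat diet (2.06), while Ndufs5 (0.581) and the copy Ndufb4c (0.821) were lowest. In complex III the lowest were Uqcrb (0.89) on the normal and Uqcrq (1.30) on the high-fat diet. In complex IV Cox6b2 was lowest on the normal diet (0.301) and highest on the high-fat diet (2.55), at levels of 0.806 and 2.34 FPKM, and Cox4i1 was lowest on the high-fat diet (0.992). In complex V the lowest were Atp5g1 (0.345) and Atp5g3 (0.756) and the highest Atp5s (1.97) and Atp5h (1.83). Ndufs5, Ndufs3, Atp5g1 and Atp5h are among the members that separated the library sets. The 8 skeletal muscle markers summed to 58.6 and 141 FPKM in the normal-diet and high-fat brown libraries and to 4.57 to 35.2 FPKM in white ones, none of them at 0 in brown, and their part in these ratios was not tested.

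The brown libraries also differed from each other. The high-fat one was at least 2-fold above the normal-diet one for 8 of 75 members and at least 2-fold below for 0, where 14% of all genes were 2-fold above and 21.5% were 2-fold apart either way. The 8 were Ndufb4, Ndufs3, Ndufs5, Uqcrb, Cox5b, Cox6b2, Atp5g1 and Atp5l, and 6 of them separated the library sets. The brown high-fat library is in the set of 8 and the normal-diet one in the set of 6, so diet, library and set cannot be told apart.

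As sequence features the rule did not use, the 4 motifs were counted in the 300-base promoter stretches of the 63 members found in the RefSeq table and of all 27025 genes in it. That background was not limited to genes expressed here, so it is not matched to the members. NRF1 letters were found in 16 members (25.4%, against 5.19% of all promoters), GABP letters in 14 (22.2% against 9.93%), YY1 letters in 10 (15.9% against 2.76%) and ERR letters in 3 (4.76% against 1.43%). For NRF1 these were 7 of 31 promoters of complex I, 2 of 3 of complex II, 1 of 5 of complex III, 0 of 9 of complex IV and 6 of 15 of complex V. For YY1 they were 7 of 31 in complex I and 3 of 15 in complex V and 0 in the other complexes. Sdhd held NRF1, GABP and ERR letters together. Of the 8 members that separated the library sets, Ndufb4, Ndufs5, Atp5g2 and Atp5h held NRF1 letters and Ndufs3, Cox5b, Atp5g1 and Atp5l did not. A match is a description of the sequence and not a bound site.

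Chain genes outside the symbol rule were read beside the members. Cyc1, the cytochrome c1 subunit of complex III, read 83.3, 98.9 and 90.1 FPKM on the normal and 111, 139 and 143 FPKM on the high-fat diet in inguinal adipocytes, a log2 difference of 0.52 that did not pass (SE 0.18, limma adjusted p = 0.0605). In brown libraries it was at 126 and 200 FPKM. Ndufab1, the acyl carrier protein that is also part of complex I, read 74.7 to 199 FPKM in epididymal and 73.3 to 88.5 FPKM in inguinal libraries and passed in 0 comparisons. Cycs, somatic cytochrome c, was higher in epididymal than in inguinal adipocytes on the high-fat diet, at 27.2, 56.4 and 49.7 against 18.3, 24.1 and 17.0 FPKM (log2 1.10, SE 0.30, adjusted p = 0.0365).

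Over 10 lists of partner genes (assembly factors of complexes I to V, coenzyme Q synthesis, carriers, cristae and outer membrane genes, regulators and the chain genes above), 96 of 100 listed genes were tested. In epididymal adipocytes 5 rose and 0 fell with the high-fat diet, where 12.2% of all genes tested were higher and 7.35% lower. In inguinal ones 9 rose and 0 fell, where 9.3% of all genes tested were higher and 10.2% lower. Esrrg is counted in both. Epididymal libraries were higher than inguinal ones for 1 gene and lower for 1 on the normal diet and higher for 5 on the high-fat diet. For the interaction 0 passed. With any one library left out the calls of Slc25a4 in inguinal adipocytes and of Vdac3 and Tomm20 between depots on the high-fat diet held. Each of the other calls was lost without at least 1 library, leaving aside Esrrg, which is described below.

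Among partners of complex V, Atpif1, the inhibitor that blocks ATP hydrolysis by the synthase, had the largest change of a called partner in the epididymal diet comparison. It read 23.5, 34.4 and 16.1 FPKM on the normal and 62.9, 73.2 and 53.6 FPKM on the high-fat diet (log2 1.40, SE 0.33, limma adjusted p = 0.0112), all within the set of 8 libraries. In inguinal adipocytes it read 12.9, 24.5 and 26.5 FPKM against 20.5, 29.8 and 15.8 FPKM (log2 0.07, adjusted p = 0.909), and the interaction did not pass (log2 1.33, SE 0.47, adjusted p = 0.113). It was also higher in epididymal than inguinal adipocytes on the high-fat diet (log2 1.54, adjusted p = 0.0117). The epididymal call was lost without epididymal high-fat replicate 1. In brown adipocytes it was at 10.4 FPKM in the normal-diet and 14.4 FPKM in the high-fat library, against 12.9 FPKM in the lowest white library. Atpaf2, an assembly factor of the F1 head, rose in inguinal adipocytes from 18.1, 31.3 and 26.7 FPKM to 43.6, 44.3 and 40.4 FPKM (log2 0.78, adjusted p = 0.0426).

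Assembly factors of the other complexes gave few calls. For complex I, 0 of 15 passed in epididymal and 1 rose in inguinal adipocytes: Acad9, from 17.6, 27.5 and 15.4 FPKM to 37.9, 40.1 and 54.5 FPKM (log2 1.14, adjusted p = 0.0445). For complex II, Sdhaf3 rose in inguinal adipocytes (log2 1.27, adjusted p = 0.0466) among 4 tested. Of 6 for complex III 0 passed in any comparison. Of 21 for complex IV, Cox15, which makes haem a, rose in epididymal adipocytes (4.67, 5.75 and 5.54 against 9.71, 8.25 and 8.01 FPKM, log2 0.65, limma adjusted p = 0.0283) and the copper factor Cox19 in inguinal ones (12.2, 23.7 and 9.82 against 28.9, 35.4 and 38.5 FPKM, log2 1.23, adjusted p = 0.013). Of 13 genes for coenzyme Q, Coq2 rose in epididymal adipocytes (log2 0.67, adjusted p = 0.0302) and Coq7 and Coq10b in inguinal ones (log2 0.96 and 0.87, adjusted p = 0.0349 and 0.042).

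Of 3 carriers tested, Slc25a4, an ADP/ATP carrier, rose in inguinal adipocytes from 65.4, 76.3 and 58.8 FPKM to 104, 119 and 111 FPKM (log2 0.74, SE 0.17, limma adjusted p = 0.011). Mfn2, a gene for mitochondrial fusion, rose there too (log2 0.88, adjusted p = 0.0408). Vdac3, Tomm20 and Slc25a5, of the outer membrane and the carriers, were higher in epididymal than inguinal adipocytes on the high-fat diet (log2 1.25, 1.00 and 0.73, adjusted p = 0.00563, 0.00702 and 0.0444), and Vdac3 also on the normal diet (0.87, adjusted p = 0.0476). All of these last 3 genes separated the library sets, Vdac3 with 30.4 to 47.3 against 15.2 to 19.3 FPKM.

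Among 15 tested regulators of mitochondrial genes, the nuclear receptor gene Esrra rose in epididymal adipocytes from 8.58, 12.7 and 17.2 FPKM to 26.3, 20.7 and 24.8 FPKM (log2 0.92, SE 0.23, limma adjusted p = 0.0159). In inguinal adipocytes it read 16.8, 16.9 and 19.4 FPKM against 20.8, 29.9 and 25.3 FPKM (log2 0.50, adjusted p = 0.157). Its relative Esrrg was at 0 to 0.242 FPKM in the 6 normal-diet and at 0.767 to 3.34 FPKM in the 6 high-fat white libraries. It passed the filter only through the high-fat libraries, so its calls in both depots follow from the filter, and its fitted differences (log2 1.15 and 1.86) depend on the pseudocount. The coactivator gene Ppargc1a was at 0.497 to 7.59 FPKM in white libraries and passed in 0 comparisons. Nrf1, Gabpa and Tfam also passed in none of the comparisons, with log2 differences of −0.72 to 0.10, −0.41 to 0.01 and −0.45 to −0.11 in the diet and depot comparisons. Polrmt, the mitochondrial RNA polymerase gene, was lower in epididymal than inguinal adipocytes on the normal diet (log2 −1.22, adjusted p = 0.0402).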

How the data were processed

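RNA-seq of 14 adipocyte libraries on an Illumina HiSeq instrument was described in the labels' protocols. Per the submitters' processing notes, TopHat2 2.0.9 placed the reads on mm10 and Cuffdiff 2.1.1 gave a value for each gene. FPKM is the unit of the deposited files, as judged from those tools and the values. Read depth is unknown, so precision rests on the spread between libraries, and a 0 can be a failed estimate.

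Groups came from the sample titles. limma 3.58.1 in R 4.3.3 (eBayes with trend, 8 residual degrees of freedom, 5 contrasts) took log2(FPKM + 0.5) from the 12 white libraries, a scale that understates changes of low genes, with Benjamini-Hochberg adjustment over the 14959 genes with at least 0.5 FPKM in at least 3 libraries, two-sided. Intervals are 95% intervals of that fit. Brown libraries entered no test, and ratios were taken for genes with a mean of at least 1 FPKM. Names came from the deposited identifiers' symbols (36638 of 38553 matched), and classes, coordinates and promoters from RefSeq on GRCm38.p6. The fit was tested on simulated data.

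Members and lists were chosen with earlier results of these data known. Named genes were every called member, in each complex the highest and lowest by white mean and by brown to white ratio, the Sdh and c subunit genes, and called partner genes. Alternatives were pseudocounts of 0.1 and 1, other filters and scalings, only the groups compared, the replicate number as a block and each library left out. The labels do not say what a replicate number marks. Deviations of same-numbered libraries correlated at 0.184, 0.111 and 0.146 between depots on the high-fat diet. In the epididymal diet comparison, whose groups ate different diets, the values were alike at 0.18, 0.0825 and 0.163. Whether the numbers pair libraries cannot be told from these correlations. P-values measure the spread between pooled libraries, which the series design calls biological triplicates.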

Additional observations from a re-analysis of the deposited data

Results flagged for a closer look

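Ndufs6b had a fitted interaction of diet and depot of −2.64 on the log2 scale. It passed the filter only through the inguinal high-fat group, so its call follows from the filter and the value from the pseudocount. It was above 0 in 3 of 3 inguinal high-fat libraries and at 0 in the other 9 white libraries. RefSeq classes it as a pseudogene, and the brown normal-diet library, the only other one above 0, is like those 3 among the 6 libraries with mitochondrial tRNA genes above 0.

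The members' share of nuclear protein-coding FPKM was lower on the high-fat diet in every epididymal library (2.58% to 2.70% against 2.99% to 3.14%) and higher in every inguinal one (3.14% to 3.32% against 2.56% to 2.94%). The epididymal difference of means minus the inguinal one was −0.892 percentage points. The difference between depots was not tested.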

How the results depend on the processing

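No called gene changed direction under any alternative run, while counts of called members moved with the scale and the libraries, and the members’ median changed sign for epididymal diet with a library left out and for depot on the high-fat diet with the set term. In epididymal adipocytes, quantile normalization called 12 members (median −0.34), nuclear protein-coding scaling 5 and a fit of only the groups compared 1. In inguinal adipocytes, TMM-type factors called 14, nuclear scaling 13, only the groups compared 1 and the library set as a term 1. With the inguinal normal diet by replicate 0 alone the median was 0.53. For the interaction the counts were 7 with quantile normalization and 5 with nuclear scaling (median −0.57 with replicate 0 alone). Between depots on the normal diet the counts were 1 with no filter, 4 with TMM-type factors, 0 with only the groups compared or the set term, and 1 without members split by set. On the high-fat diet they were 17 with quantile normalization (median −0.37) and 20 with nuclear scaling (−0.35). They were 17 with only the groups compared, 1 with the set term (0.18) and 2 without split members. In brown, 4 of 75 members passed at 1.5-fold, where 1.33% of all genes did, and 4 at 2-fold with TMM-type factors, where 1.29% did. Between the brown diets 22 members differed 1.5-fold. The share of all genes at 1.5-fold is not given, and 21.5% of all genes were already 2-fold apart. That count is therefore not a result about the members. For the 5 white comparisons, in the order above, quantile normalization called 19.3%, 22.6%, 7.85%, 8.74% and 10.5% of all genes. Nuclear scaling called 19.9%, 22.2%, 7.73%, 7.72% and 10.5%, and TMM-type factors 20.9%, 23.0%, 7.87%, 8.11% and 10.9%. The set term called 19.7%, 13.4%, 5.66%, 1.14% and 0.682%. For the other runs the share of all genes called is not given here, so their counts cannot be read against it. The cause of these shifts was not tested. The set term, replicate 0 alone and the removal of split members were chosen after seeing the data.

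With the replicate number as a block, 14 members were called in inguinal adipocytes and 2 for the interaction. The share of all genes called in that run is not given here. Deviations of same-numbered libraries correlated at 0.18, 0.0825 and 0.163 in the epididymal diet comparison and 0.272, 0.0982 and 0.00688 in the inguinal one. Between depots on the normal diet they correlated at 0.133, 0.0288 and 0.0761. The numbers were not taken to pair libraries in the main fit.

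With each library left out in turn, counts ran from 0 to 0 for epididymal diet, 0 to 22 for inguinal diet and 0 to 5 for the interaction. They ran from 0 to 7 for depot on the normal and 2 to 9 on the high-fat diet. The shares of all genes called in these runs are not given here. Medians ran from −0.19 to 0.09, 0.20 to 0.45, −0.46 to −0.19, 0.11 to 0.42 and −0.19 to −0.04 in the same order.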
